A study of Mus musculus with 4 samples.

Results

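The genes described here encode the subunits of the 5 complexes of mitochondrial oxidative phosphorylation. Members were protein-coding genes of GENCODE M21 with symbols starting Ndufa, Ndufb, Ndufc, Ndufs, Ndufv, Uqcr, Atp5 or mt-, plus Sdha to Sdhd and the Cox4 to Cox8 subunits, without assembly factors. This gave 99 genes, 86 nuclear and 13 mitochondrially encoded. Of these, 88 were among the 17476 genes of the count table and 86 passed the filter on low counts, so 79 nuclear and 7 mitochondrial genes were tested. Ndufa4, a subunit of cytochrome c oxidase despite its name, was placed with complex IV. The gene of cytochrome c1, a nuclear subunit of complex III, has a symbol outside this rule and is not a member.

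The libraries came from myeloid-derived suppressor cells (MDSCs), immature myeloid cells known for suppressing T cells. There were 2 libraries from WT and 2 from Trem2 mutant cells, both on C57BL/6, and Trem2 encodes a receptor on macrophages and related cells that binds lipids. Bone marrow of either genotype was differentiated in vitro, and the resulting MDSCs were given to male NRG mice bearing subcutaneous TRAMP-C1 tumours, from a mouse prostate cancer line. NRG mice lack lymphocytes but keep myeloid cells of their own; they were 6 weeks old at tumour challenge and received the cells 4 weeks after it. At 6 h after transfer, tumours were digested and CD45+ CD11b+ GR1+ cells sorted, a gate with no marker for donor over host. What kind of mutation the Trem2 allele is was not stated. Library numbers follow the columns of the table: WT 1, WT 2, Trem2 mutant 1, Trem2 mutant 3. No label ties a library to its own animal or culture, and the p-values therefore measure a spread between 4 samples that may be technical only.

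Oxidative phosphorylation passes electrons from NADH and succinate through complexes I to IV to oxygen, pumps protons across the inner mitochondrial membrane, and uses the return flow to make ATP in complex V. The subunits come from both genomes: mitochondrial DNA encodes core membrane subunits of complexes I, III, IV and V, whereas complex II is wholly nuclear. Mature neutrophils have few mitochondria and rely largely on glycolysis, while macrophages and monocytes respire more.

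Library totals were 8037733 and 8077966 reads in WT and 10306674 and 9820893 reads in mutant samples. Levels are given as CPM, read counts relative to library size, scaled by TMM, the trimmed mean method of edgeR. Trem2 had 406, 477, 191 and 195 reads in WT 1, WT 2, Trem2 mutant 1 and Trem2 mutant 3 (log2 fold change −1.14, SE 0.125, edgeR adjusted p = 0.00157), so its transcript was reduced and not absent. Gm42418, which overlaps an rRNA repeat, held 13.9% of all reads in Trem2 mutant 1 but at most 1.04% in any other library. Xist, a transcript of female cells, had 2 and 3 reads in WT and 6928 and 9117 reads in mutant libraries. A difference in sex between the cells of the libraries therefore cannot be told apart from genotype in any comparison here. Of 14239 genes tested, 13.2% were called at an adjusted p under 0.05 (edgeR quasi-likelihood test, Benjamini-Hochberg), 9.55% higher and 3.6% lower in the mutant libraries. Both mutant libraries lay below both WT libraries for 31.7% of the genes and above both for 28.9%.

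The 6 mitochondrial genes mt-Co2, mt-Atp8, mt-Atp6, mt-Co3, mt-Nd3 and mt-Nd4l were not analysed here, so complex V has nuclear values only. These 6 genes lie next to each other on the mitochondrial chromosome (GRCm38), from 7013 to 10173. Chromosome 1 carries a near-identical nuclear copy of this stretch, annotated as unprocessed pseudogenes. Of the windows of 75 bases, the number of sequencing cycles, 99.5% in mt-Co2, 99.5% in mt-Atp6, 99.9% in mt-Co3, 97.8% in mt-Nd3 and 98.7% in mt-Nd4l also occur in another annotated gene. For mt-Atp8 (7766 to 7969) it was 0 windows. The annotated copy of mt-Atp6, Gm10925, matches from 7927 on and so reaches only the end of mt-Atp8, short of 75 bases. Among the genes analysed, the share was 61.5% for mt-Nd4, 39.8% for mt-Co1, 5.71% for mt-Nd2 and 1.66% for mt-Nd5, and 0% for mt-Nd1, mt-Nd6 and mt-Cytb. The treatment of reads that match both places was not stated, so the levels of mt-Nd4 and mt-Co1 are uncertain; the search covered annotated transcripts only, so copies outside annotated genes were not counted. The plot of shared windows shows this order along the molecule.

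**Figure D1:**
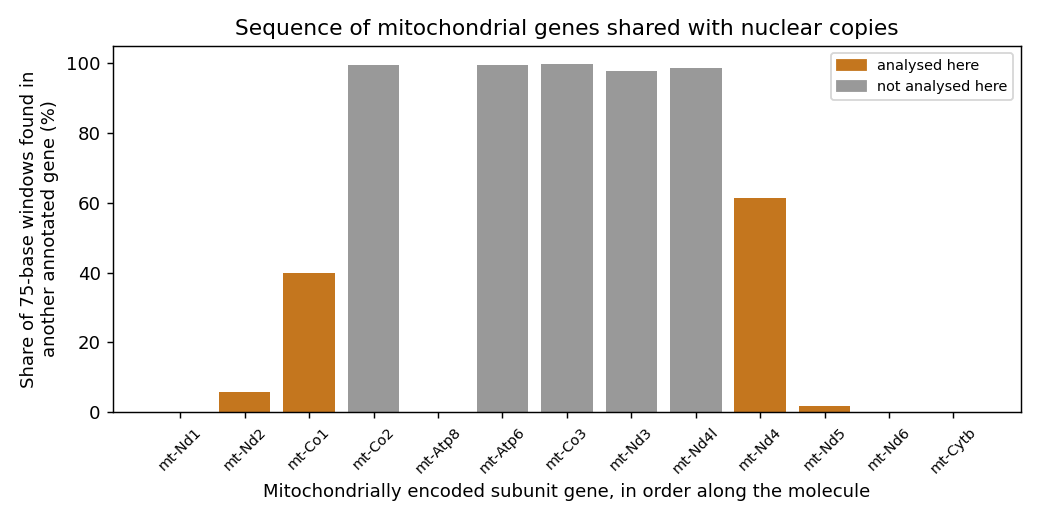
Share of all 75-base windows of each of the 13 mitochondrially encoded subunit genes (percent, vertical axis) that also occur in another annotated gene, with genes in their order on the molecule. Grey bars, for genes not analysed here, reach 97.8% to 99.9% except mt-Atp8 at 0%; orange bars, for the genes analysed, are highest for mt-Nd4 at 61.5%.

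The first 75 bases of mt-Co2 (mitochondrial chromosome, plus strand, 7013 to 7087) and of its copy Gm28661 (chromosome 1, minus strand, gene at 24614885 to 24615565) show what a read would meet, from GENCODE M21 transcripts. Below them, mt-Nd3 from its base 3 onward is set against Gm28438 (chromosome 1, 24612775 to 24613119, minus strand), with the single mismatch of that pair in capitals. 
mt-Co2: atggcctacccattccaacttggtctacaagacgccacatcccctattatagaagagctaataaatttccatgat
Gm28661: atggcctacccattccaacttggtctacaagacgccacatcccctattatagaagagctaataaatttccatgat
mt-Nd3: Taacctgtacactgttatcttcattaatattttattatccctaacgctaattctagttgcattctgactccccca
Gm28438: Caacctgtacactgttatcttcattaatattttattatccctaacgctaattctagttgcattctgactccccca
Over 681 aligned bases mt-Co2 and Gm28661 had 0 mismatches. Over 345 aligned bases mt-Nd3 and its copy had 1, T3C, counted from 1 at the first base of mt-Nd3.

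All 7 mitochondrially encoded genes tested were higher in the mutant libraries, with log2 fold changes from 0.44 to 1.30 and a median of 0.78, beside −0.02 for all genes tested, of which 9.55% were called higher. In each of the 7, both mutant libraries lay above both WT libraries, as they did for 28.9% of all genes tested. In bulk samples such as these, fewer cells of a type and less RNA per cell cannot be told apart. The direction held for all 7 under every scaling, filter and test tried, and with each library left out. The number called was 4 without WT 1 and 4 without WT 2, and 3 when scaled by library totals alone, which put the median of all genes at −0.40.

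Among the complex I genes, mt-Nd1 had 729 and 638 CPM in WT 1 and WT 2, and 867 and 1043 CPM in Trem2 mutant 1 and Trem2 mutant 3. It encodes a membrane subunit next to the ubiquinone site. It rose 1.40-fold (log2 fold change 0.48, SE 0.124, edgeR adjusted p = 0.0413). mt-Nd2, a proton-pumping subunit, went from 186 and 161 CPM to 214 and 255 CPM (0.44, SE 0.112, edgeR adjusted p = 0.0419). These were the smallest rises of the 7. Neither passed without WT 1 (log2 fold changes 0.58 and 0.54) or WT 2 (0.39 and 0.34), under upper-quartile scaling or with library totals alone.

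mt-Nd4 and mt-Nd5 encode the other large pumping subunits of the membrane arm. mt-Nd4 had 138 and 122 CPM in WT and 213 and 248 CPM in mutant libraries, 1.77-fold higher (log2 fold change 0.83, SE 0.105, edgeR adjusted p = 0.00276). mt-Nd5 went from 388 and 371 CPM to 601 and 699 CPM, 1.71-fold higher (0.78, SE 0.103, edgeR adjusted p = 0.00331). Both were called with each library left out, and mt-Nd5 lost its call with library totals alone (0.41).

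mt-Nd6 showed the largest rise of the 7 and the widest spread between the mutant libraries. It is the only protein gene read from the other mitochondrial strand, at 13552 to 14070 on the minus strand. Its levels were 41.4 and 32.6 CPM in WT and 71.99 and 110 CPM in mutant libraries, from 381, 298, 601 and 1027 reads. The rise was 2.47-fold (log2 fold change 1.30, SE 0.204, edgeR adjusted p = 0.00645). Its last 14 bases overlap mt-Nd5 on the opposite strand, and whether strand was used in counting was not stated, so sense and antisense reads cannot be told apart.

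mt-Cytb, the cytochrome b of complex III, had 713 and 652 CPM in WT and 1197 and 1253 CPM in mutant libraries. It rose 1.80-fold (log2 fold change 0.84, SE 0.1001, edgeR adjusted p = 0.00204), and its call held in every alternative. mt-Co1, the catalytic subunit of cytochrome c oxidase (complex IV), was the most abundant member. It went from 2337 and 2404 CPM to 3751 and 3834 CPM (log2 fold change 0.68, SE 0.112, edgeR adjusted p = 0.00812). The pairs agreed closely, yet its call was lost without WT 1 (0.66, adjusted p = 0.136), without WT 2 (0.70, adjusted p = 0.0951) and with library totals alone (0.31).

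**Figure D2:**
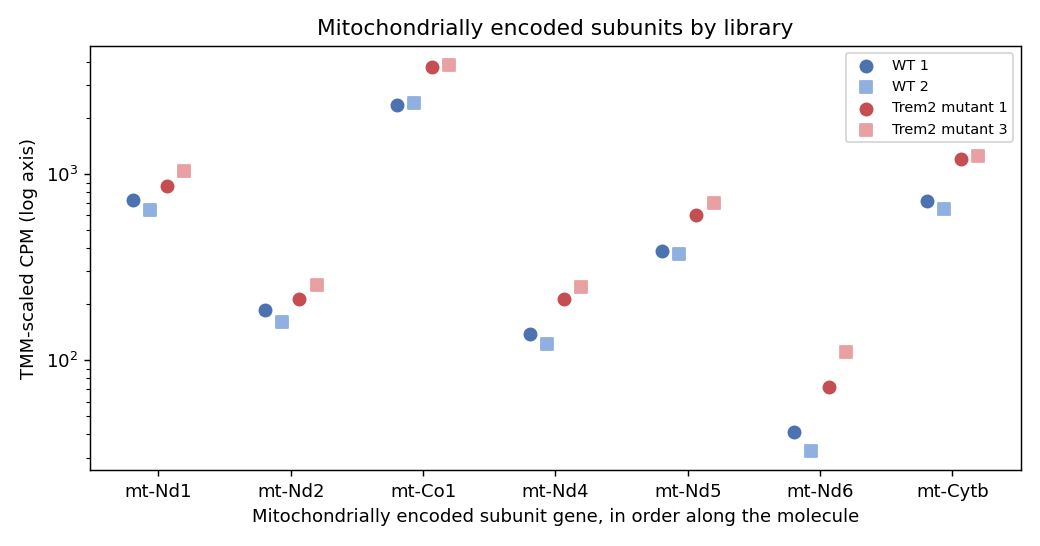
Levels of the 7 mitochondrially encoded subunit genes tested (TMM-scaled CPM, log axis) in each of the 4 libraries, blue for WT and red for Trem2 mutant, with genes in their order on the molecule. Both red points lie above both blue points for every gene, and the widest gap between the mutant libraries is in mt-Nd6 (71.99 and 110 CPM).

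The mitochondrial ribosomal RNAs, which are no subunits and which the library kit is meant to deplete, moved the same way. The summed share of mt-Rnr1 and mt-Rnr2 among all reads was 1.66% in WT 1, 1.93% in WT 2, 2.47% in Trem2 mutant 1 and 4.19% in Trem2 mutant 3. The part of rRNA depletion in the values of the protein genes was not tested.

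Most nuclear subunits lay slightly lower in the mutant libraries, but few passed the test. Of 79 tested, 6 were lower and 0 higher (7.59% lower, beside 3.6% of all genes); at an unadjusted p under 0.05, 28 were lower and 1 higher in the same edgeR test. The median log2 fold change was −0.21 and 69 of 79 values were below 0, beside 52.7% of all genes tested. In 51 of the 79, both mutant libraries lay below both WT libraries, beside 31.7% of all genes tested, and in 3 (Cox7a2l, Cox5a and Cox7a1) above. The direction of this lean was the same under all scalings, with 66 (RLE) to 78 (library totals alone) of 79 values below 0. Of all genes tested, 50.9% were below 0 with RLE and 81.3% with library totals alone. The nuclear median minus the median of all genes was −0.19 under both of these scalings.

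The number called depended on single libraries and on the tool. It was 1 without WT 1, 0 without WT 2, 7 without Trem2 mutant 1 and 20 without Trem2 mutant 3. DESeq2 called 1 lower and 0 higher and limma-voom 4 lower and 0 higher. Relative to the mean of the WT libraries, the median nuclear subunit stood at −0.31 (log2) in Trem2 mutant 1 and −0.18 in Trem2 mutant 3, against 0.04 and −0.04 in WT 1 and WT 2. In 57 of the 79 genes Trem2 mutant 1, the library with the Gm42418 reads, was the lower of the mutant pair. The WT pair was split in a similar way, with WT 1 above WT 2 in 56 of the 79. Without Trem2 mutant 1, 62 of 79 values were still below 0.

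**Figure D3:**
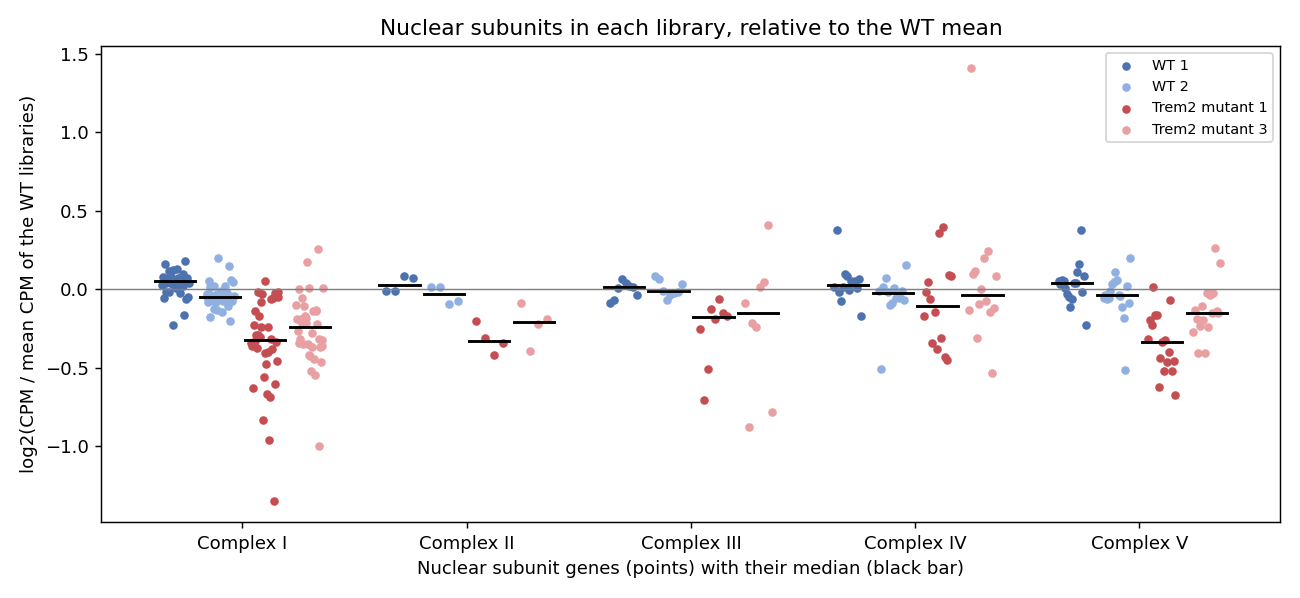
Level of each nuclear subunit gene (points) in each library relative to the mean of both WT libraries (log2 ratio of CPM, vertical axis), by complex, with the median as a black bar. The bars of the mutant libraries (red) lie below those of the WT libraries (blue) in every complex, least so in complex IV; the point at 1.41 in complex IV is Cox4i2 in Trem2 mutant 3, from 27 reads.

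Markers of cell types moved in the same libraries. Beside the counts called below, 9.55% of all genes tested were called higher and 3.6% lower. The summed level of 14 neutrophil markers was 6558 and 6399 CPM in WT and 32404 and 26614 CPM in mutant libraries, with 13 of 14 higher. That of 8 monocyte markers was 1528 and 1639 CPM in WT and 6669 and 4704 CPM in mutant libraries, with 6 of 8 higher. The 9 macrophage markers summed to 1932 and 1960 CPM in WT and 1670 and 1500.3 CPM in mutant libraries, with 4 higher and 1 lower. Eosinophil markers (73.4, 72.5, 161 and 199.6 CPM in WT 1, WT 2, Trem2 mutant 1 and Trem2 mutant 3; 6 of 6 tested higher) and fibroblast markers (159, 111, 447 and 403 CPM; 3 of 6 tested higher) were higher too. The erythroid markers with values summed to 6.74 and 27.9 CPM in WT and 61.5 and 168 CPM in mutant libraries (3 of 4 tested higher). T, NK and B cell markers summed to 12.5, 13.03, 7.79 and 9.46 CPM (0 of 4 called by edgeR or DESeq2, 1 lower at an unadjusted p under 0.05). Of 8 epithelial markers, which the tumour line could bring, Krt19, Krt5, Krt14 and Cldn4 were not analysed here, and the sum was 154 and 161 CPM in WT and 85.8 and 88.4 CPM in mutant libraries (1 of 2 tested lower). Of 10 striated muscle markers 8 were not analysed here, and the others summed to at most 3.65 CPM. The gate markers Ptprc, Itgam and Ly6 genes summed to 1567 and 1627 CPM in WT and 2505 and 2412 CPM in mutant libraries. The part of these cell types in the values of the subunit genes was not tested.

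Complex I, the NADH dehydrogenase, had 36 nuclear subunits tested, 3 lower and 0 higher (15 lower and 0 higher at an unadjusted p under 0.05; DESeq2 called 0). The share of all genes called lower, to set beside each complex, was 3.6%. In complex I the median log2 fold change was −0.24, and 34 of 36 values were below 0, beside 52.7% of all genes tested. All 3 calls, Ndufc2, Ndufb6 and Ndufb5, are accessory subunits of the membrane arm. Ndufc2 had 28.4 and 29.3 CPM in WT and 18.0 and 19.8 CPM in mutant libraries, 1.53-fold lower (log2 fold change −0.61, SE 0.120, edgeR adjusted p = 0.0159). Ndufb6 went from 27.8 and 27.5 CPM to 19.9 and 19.2 CPM, 1.41-fold lower (−0.50, SE 0.115, edgeR adjusted p = 0.0288). In both genes the WT pair and the mutant pair were far apart relative to the spread within them. Leaving out WT 1 (−0.64 and −0.49) or WT 2 (−0.59 and −0.51), or using DESeq2, ended both calls.

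Ndufb5 sat at the threshold, with 30.8 and 28.8 CPM in WT and 22.5 and 22.1 CPM in mutant libraries (log2 fold change −0.42, SE 0.113, edgeR adjusted p = 0.04999). It lost its call with any single library left out and under 6 of the other 9 alternatives. Ndufb6 and Ndufb5 share part of their sequence with overlapping neighbours, Smim27 (27.8% of windows) and Mrpl47 (10.6%), so some of their reads are uncertain.

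The lowest estimate of all members was Ndufs5, a small membrane-arm subunit, at 3.26 and 4.05 CPM in WT and 1.44 and 1.83 CPM in mutant libraries. It rested on 30, 37, 12 and 17 reads and did not pass (log2 fold change −1.15, SE 0.331, edgeR adjusted p = 0.0595). Ndufc1, another small membrane-arm subunit, had 17.9 and 17.5 CPM in WT and 9.10 and 13.004 CPM in mutant libraries (−0.68, SE 0.191, edgeR adjusted p = 0.0565). Neither group overlapped in these genes, but the mutant libraries differed from each other in Ndufc1. Ndufc1 was called without Trem2 mutant 3 (−0.94), with upper-quartile scaling (−0.71) and with library totals alone (−1.04).

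The 19 membrane-arm genes had a median of −0.27 and the 16 matrix-arm genes −0.23, a difference that was not tested. Of the 7 core matrix subunits, which carry the flavin, the iron-sulfur clusters and the ubiquinone site, 0 were called (DESeq2 0) and all 7 estimates were below 0, from −0.40 for Ndufs8 to −0.10 for Ndufs1. Ndufs1, the largest iron-sulfur subunit, had 57.0 and 53.5 CPM in WT and 52.8 and 50.4 CPM in mutant libraries. Ndufv1, which binds NADH, had 44.1 and 39.7 CPM in WT and 30.5 and 33.4 CPM in mutant libraries and did not pass (−0.39, SE 0.111, edgeR adjusted p = 0.0588). The values above 0 in complex I were Ndufs4 (0.11) and Ndufb11 (0.08), whose groups overlapped.

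Complex II, succinate dehydrogenase, links the citric acid cycle to the chain and has no mitochondrially encoded subunit. Of its 4 genes 0 were called (3 lower and 0 higher at an unadjusted p under 0.05, DESeq2 called 0). In all 4 both mutant libraries lay below both WT libraries, as they did for 31.7% of all genes tested. Sdha, the flavoprotein, had 104 and 106 CPM in WT and 91.2 and 98.8 CPM in mutant libraries (log2 fold change −0.14, SE 0.0808). Sdhb, the iron-sulfur subunit, had 48.5 and 49.4 CPM in WT and 39.4 and 37.2 CPM in mutant libraries (−0.35, SE 0.0966, edgeR adjusted p = 0.0508). The membrane anchors Sdhc and Sdhd had values of −0.32 and −0.26. With library totals alone as the scaling, all 4 were called lower. That scaling called 4365 of all 14239 genes lower, and 57 of the 79 nuclear subunits. Sdhb was also called without Trem2 mutant 1, with upper-quartile scaling and in the bias-adjusted form of the edgeR fit, and Sdhc and Sdhd were called without Trem2 mutant 3.

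Complex III, the cytochrome bc1 complex, held the nuclear subunit with the most stable call. Uqcr11, a small accessory subunit, had 23.3 and 25.6 CPM in WT and 14.97 and 13.3 CPM in mutant libraries, 1.73-fold lower (log2 fold change −0.79, SE 0.137, edgeR adjusted p = 0.0101). The groups did not overlap, and the call was lost in 1 of 13 alternatives, without WT 2 (−0.72, adjusted p = 0.0741). Of 8 nuclear subunits, 1 was lower and 0 higher (3 lower and 0 higher at an unadjusted p under 0.05; DESeq2 called 1 lower), with a median of −0.17. The Rieske iron-sulfur protein gene Uqcrfs1 had 29.9 and 29.0 CPM in WT and 28.3 and 30.4 CPM in mutant libraries (−0.01, SE 0.109).

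In 2 genes of complex III the mutant libraries went apart. Uqcrq had 51.5 and 54.1 CPM in WT, 47.0 CPM in Trem2 mutant 1 and 30.7 CPM in Trem2 mutant 3, and was called lower without Trem2 mutant 1 (−0.77) and with library totals alone (−0.84). Uqcrh, the hinge protein, had 37.2 and 36.5 CPM in WT, 33.2 CPM in Trem2 mutant 1 and 48.9 CPM in Trem2 mutant 3, and was called higher without Trem2 mutant 1 (0.42); its estimate was −0.13 without Trem2 mutant 3 and −0.20 with library totals alone.

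Over all nuclear genes tested, complex IV, cytochrome c oxidase, lay nearest to the rest of the genome, with a median of −0.07. Its 11 common subunits alone had a median of −0.15, beside −0.17 for complex III. The others were Cox7a2l (0.32) and, with few reads, the tissue forms Cox4i2 (0.88) and Cox7a1 (0.28). Of 14 tested, 2 were lower and 0 higher (3 lower and 1 higher at an unadjusted p under 0.05; DESeq2 called 0), and 8 values were below 0. Cox7c had 20.7 and 20.4 CPM in WT and 14.97 and 14.2 CPM in mutant libraries (log2 fold change −0.49, SE 0.132, edgeR adjusted p = 0.0483). Cox6a1, the common form of subunit VIa, had 65.5 and 64.1 CPM in WT and 51.2 and 52.3 CPM in mutant libraries (−0.32, SE 0.0869, edgeR adjusted p = 0.0480). Neither pair overlapped the other. Cox7c lost its call with any single library left out, Cox6a1 without WT 1, WT 2 or Trem2 mutant 1, and both with RLE, no filter, DESeq2 or limma-voom. Cox7c also shares 19.6% of its windows with pseudogenes.

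The other 9 common subunits were not called. Cox7b, a small accessory subunit, had 63.4 and 58.8 CPM in WT and 45.3 and 55.2 CPM in mutant libraries (log2 fold change −0.28, SE 0.117, edgeR adjusted p = 0.155). Cox7a2 (−0.19), Cox6c (−0.18) and Cox6b1 (−0.12) also had estimates below 0, and of these the groups overlapped in Cox6c and Cox6b1. Cox4i1, the regulatory subunit, had 127 and 125 CPM in WT and 112 and 115 CPM in mutant libraries (log2 fold change −0.15, SE 0.0753). Cox5a (0.07), Cox5b (0.03), Cox8a (−0.01) and Ndufa4 (0.08) had estimates smaller than their standard errors, of 0.0925 to 0.143. Cox7a2l, which joins complexes III and IV in supercomplexes, was the nuclear gene that passed upward at an unadjusted p. It had 31.1 and 29.6 CPM in WT and 40.0 and 35.9 CPM in mutant libraries (0.32, SE 0.110, edgeR adjusted p = 0.0981), with a call without Trem2 mutant 3 (0.42) and a value of −0.06 with library totals alone.

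Tissue-specific forms of complex IV subunits were at or near the limit of detection. Cox4i2, the hypoxia-linked form, had 13, 7, 9 and 27 reads in WT 1, WT 2, Trem2 mutant 1 and Trem2 mutant 3, and Cox7a1, the heart and muscle form, had 12, 12, 14 and 14 reads. Cox6b2 (testis) had 3, 4, 3 and 3 reads and Cox8b (heart and muscle) 4, 3, 3 and 1, and both fell under the filter. Ndufa4l2, Cox6a2, Cox7b2 and Cox8c were not analysed here, nor was a second gene model named Atp5o.

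Complex V, the ATP synthase, had 17 nuclear genes tested and 0 called (4 lower and 0 higher at an unadjusted p under 0.05; DESeq2 called 0). Its median was −0.20, and 16 of 17 values were below 0. The catalytic head genes Atp5a1 and Atp5b were the most abundant nuclear members by CPM. Atp5a1, the alpha subunit, had 309 and 287 CPM in WT and 239 and 247 CPM in mutant libraries (log2 fold change −0.30, SE 0.0833, edgeR adjusted p = 0.0563). Atp5b, the beta subunit, had 386 and 367 CPM in WT and 328 and 344 CPM in mutant libraries (−0.16, SE 0.0838, edgeR adjusted p = 0.235). Both lay below WT without overlap. Both were called with library totals alone, as were 57 of the 79 nuclear subunits. Atp5a1 was also called with upper-quartile scaling, with limma-voom and without Trem2 mutant 3.

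Of the peripheral stalk, Atp5h had 72.2 and 68.5 CPM in WT and 49.1 and 59.5 CPM in mutant libraries (log2 fold change −0.37, SE 0.111, edgeR adjusted p = 0.0665). The 3 genes of the proton-carrying c ring encode nearly the same mature protein. Atp5g3 was the most expressed of them, with 50.5 and 54.7 CPM in WT and 41.7 and 51.7 CPM in mutant libraries (−0.17). Atp5g1 (−0.39) and Atp5g2 (−0.42) were at a lower level, and Atp5g2 shares 35.8% of its windows with other genes. Atp5l (subunit g) had only 15, 8, 10 and 14 reads. It shares windows with 21 other annotated genes, so its level is uncertain. Atp5s, a coupling factor and no stable subunit, had 9, 12, 6 and 12 reads.

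**Figure D4:**
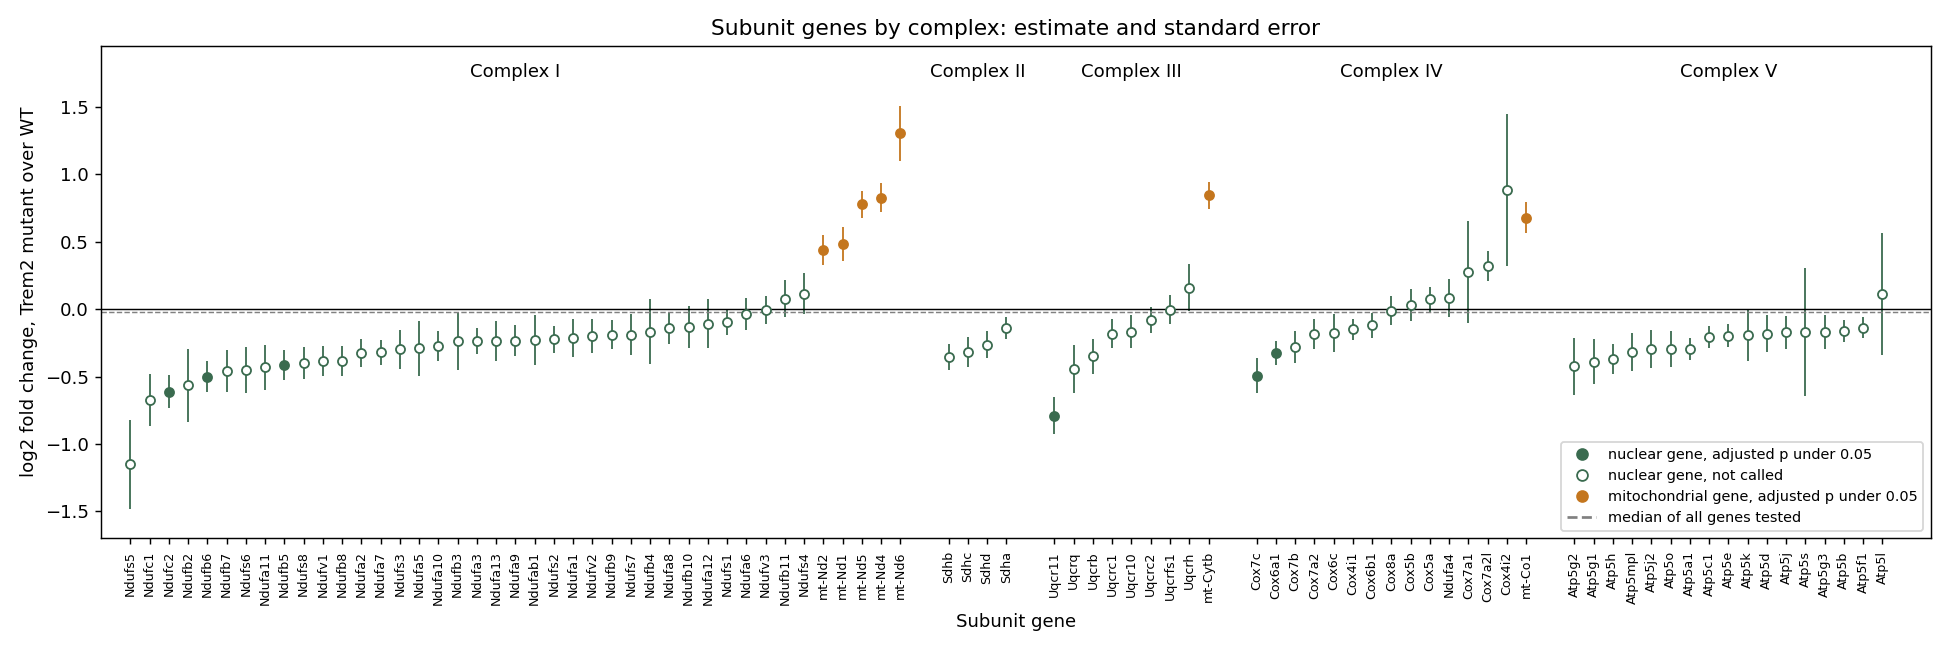
Log2 fold change, Trem2 mutant over WT, of all 86 subunit genes tested, with its standard error, by complex and sorted within each; green for nuclear and orange for mitochondrial genes, filled where the edgeR adjusted p was under 0.05, and the dashed line marks the median of all genes tested (−0.02). The 7 orange points lie between 0.44 and 1.30, and 69 of the 79 green points lie below 0.

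Set against each other, the genomes moved apart in each complex that could be compared. The measure was the mean of log2(CPM + 1) over the mitochondrial subunits minus that over the nuclear subunits of the same complex in the same library. In complex I it was 2.96 and 2.84 in WT 1 and WT 2, and 3.82 and 4.04 in Trem2 mutant 1 and Trem2 mutant 3. In complex III it was 4.22 and 4.08 in WT and 5.22 and 5.23 in mutant libraries, from mt-Cytb alone on the mitochondrial side. In complex IV it was 6.17 and 6.27 in WT and 6.98 and 6.90 in mutant libraries, from mt-Co1 alone. In all 3 complexes both mutant libraries were above both WT libraries.

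The means differed by 1.03 in complex I (WT 2.90 ± 0.0841, mutant 3.93 ± 0.157, SD, n = 2 per genotype), by 1.08 in complex III and by 0.72 in complex IV. Over the 3 complexes together the difference was 0.97, a 1.96-fold shift, on which no test was made. With TMM, the mitochondrial side changed by 0.75 and the nuclear side by −0.21. In complex IV the nuclear side changed by −0.04, a mean that includes Cox7a2l, Cox4i2 and Cox7a1. The split between the sides depends on the scaling. With library totals alone, the median log2 fold changes over all tested subunits were 0.41 (mitochondrial) and −0.58 (nuclear). Because both sides of the measure come from the same library, a factor common to all genes of a library nearly cancels. The difference stayed above 0 with each library left out, from 0.90 to 1.04.

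In summed levels, the 7 mitochondrial genes held 4533 and 4380 CPM in WT and 6916 and 7442 CPM in mutant libraries. The 79 nuclear genes held 3732 and 3557 CPM in WT and 3060 and 3239 CPM in mutant libraries. Mitochondrial transcripts thus outweighed nuclear ones in all 4 libraries, by more in the mutant pair.

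**Figure D5:**
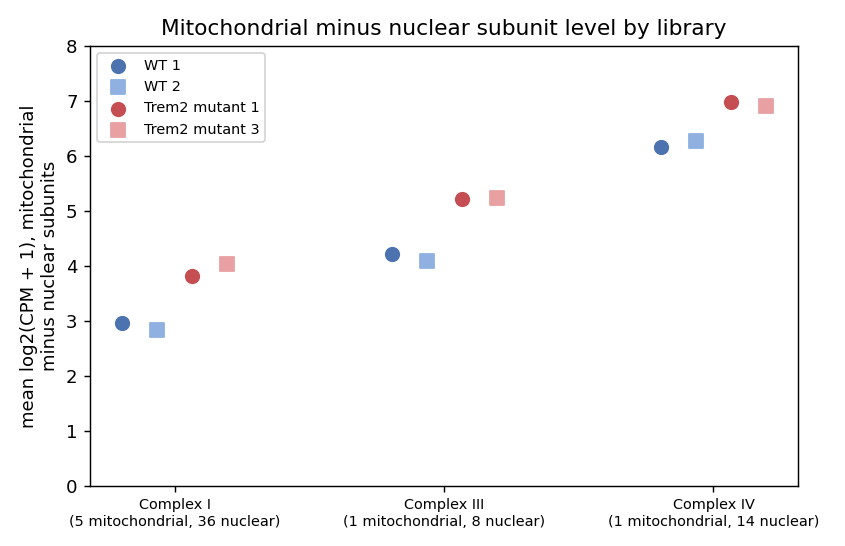
Mean log2(CPM + 1) of mitochondrially encoded subunits minus that of nuclear subunits in complexes I, III and IV (vertical axis), in each of the 4 libraries. In each complex both mutant libraries (red) lie above both WT libraries (blue), at 3.82 and 4.04 against 2.96 and 2.84 in complex I.

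Per kilobase of merged exons (RPKM, from TMM-scaled counts), WT levels of the mitochondrial genes ran from 71.4 for mt-Nd6 to 1534 for mt-Co1. Nuclear members ran from 0.195 for Atp5l to 133 for Cox6b1, a subunit of complex IV, with a median of 21.6. Atp5a1 (95.0), Cox8a (93.0), Cox6a1 (92.3), Atp5b (88.9) and Cox4i1 (81.1) followed Cox6b1. Merged exon lengths include rare long transcripts, so RPKM of genes such as Ndufb2, Ndufab1 and Atp5l may be too low. mt-Nd6, the least of the mitochondrial genes, thus lay below these 6 nuclear genes in WT, and in mutant libraries, at 176, it lay above all nuclear members.

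Of the nuclear members tested, 38 of 79 share some 75-base window with another annotated gene, and 16 share at least 10% of them. In the other 63, 3 were lower and 0 higher, with a median log2 fold change of −0.20 and 54 values below 0. The share is over windows of all annotated transcripts of a gene, so long forms lower it. The 63 still include Atp5g1, Ndufab1 and Atp5l, which share windows with 35, 15 and 21 other genes. The X-linked members Cox7b, Ndufa1 and Ndufb11 had log2 fold changes of −0.28, −0.21 and 0.08, and 0 of the 3 were called (edgeR; Cox7b was lower at an unadjusted p under 0.05, and DESeq2 called 0).

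Promoters of nuclear respiratory genes are known for sites of the factors NRF1, GABPA (an ETS factor) and YY1. RefSeq promoter windows (GRCm38.p6, 250 bases before to 50 after a start) were matched for 64 of the 79 nuclear members. The letters GCGCATGCG, part of the NRF1 consensus, occurred on either strand in 8 of the 64 (12.5%), beside 2.61% of 17492 protein-coding genes. CCGGAAGT, an ETS core searched on both strands, occurred in 5 (7.81%, beside 5.69%), and AAGATGGCG, a YY1 core searched on both strands, in 7 (10.9%, beside 2.14%). Of the 6 members called lower, 2 held the NRF1 letters (Cox6a1 and Uqcr11), 1 the ETS letters (Uqcr11) and 0 the YY1 letters.

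Shown are bases −150 to −11 before the start of the 2 members with the largest called falls and of Ndufa11, an uncalled complex I gene with the NRF1 letters (log2 fold change −0.43), with matches in capitals. Uqcr11 is on chr10:80406832-80406971 (minus strand), Ndufc2 on chr7:97399853-97399992 (plus) and Ndufa11 on chr17:56717612-56717751 (plus), all GRCm38.p6. 
Uqcr11: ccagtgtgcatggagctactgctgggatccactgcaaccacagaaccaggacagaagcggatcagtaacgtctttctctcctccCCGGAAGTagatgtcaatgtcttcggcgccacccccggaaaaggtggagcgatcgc
Ndufc2: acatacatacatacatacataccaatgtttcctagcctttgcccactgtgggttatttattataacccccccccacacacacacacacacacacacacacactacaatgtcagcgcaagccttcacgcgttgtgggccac
Ndufa11: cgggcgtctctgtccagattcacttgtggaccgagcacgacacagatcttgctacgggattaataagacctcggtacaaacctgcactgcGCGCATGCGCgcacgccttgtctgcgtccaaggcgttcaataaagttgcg
In Uqcr11 the NRF1 letters lie past the stretch shown and not wholly before the start, where only the ETS letters matched. The Ndufc2 stretch holds none of the 3 sets of letters. A match describes these letters only.

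Other genes of the pathway were read from 11 lists of assembly, cofactor, expression and fuel genes. Of 135 genes tested in them, 5 were lower and 0 higher (31 lower and 7 higher at an unadjusted p under 0.05; DESeq2 called 0), 3.70% against the 3.6% of all genes, with a median log2 fold change of −0.16. Without WT 1 the number lower was 0, without WT 2 it was 1 and without Trem2 mutant 3 it was 11.

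Assembly factors of complexes I, III, IV and V had medians below 0, from −0.37 (complex V, 4 genes) to −0.25, and that of the 4 complex II factors was 0.04. Of 17 complex I assembly factors 0 were called (median log2 fold change −0.25; 3 lower at an unadjusted p under 0.05; DESeq2 called 0). Uqcc2, which helps to make cytochrome b, had 24.6 and 24.8 CPM in WT and 14.6 and 16.4 CPM in mutant libraries (−0.67, SE 0.130, edgeR adjusted p = 0.0154), 1 lower of 5 complex III factors. Sco1, a copper chaperone of complex IV, had 13.9 and 15.4 CPM in WT and 9.58 and 9.35 CPM in mutant libraries (−0.63, SE 0.163, edgeR adjusted p = 0.0424), 1 lower of 22 complex IV factors.

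Of 18 genes of mitochondrial DNA maintenance and transcription, 1 was lower and 0 higher, beside 3.6% and 9.55% of all genes tested. At an unadjusted p under 0.05, 2 were lower and 1 higher, and DESeq2 called 0. Their median was −0.02. The 1 call was Polrmt, the mitochondrial RNA polymerase, with 19.3 and 16.2 CPM in WT and 11.6 and 9.56 CPM in mutant libraries (log2 fold change −0.75, SE 0.175, edgeR adjusted p = 0.0309). Of 15 genes of mitochondrial RNA processing and stability, 1 was lower and 0 higher (6 lower and 0 higher at an unadjusted p under 0.05; DESeq2 called 0), with a median of −0.33. It was Trmt10c, a subunit of the mitochondrial RNase P that frees transcripts from their tRNAs, with 19.5 and 17.4 CPM in WT and 12.1 and 11.7 CPM in mutant libraries (−0.63, SE 0.148, edgeR adjusted p = 0.0309).

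Of 9 nuclear regulators of respiratory genes, 0 were called (1 higher at an unadjusted p under 0.05; DESeq2 called 0), and Gabpa, which binds the ETS letters, had 67.0 and 68.9 CPM in WT and 71.5 and 76.2 CPM in mutant libraries. Myc had 20.6 and 23.9 CPM in WT and 39.4 and 27.6 CPM in mutant libraries (log2 fold change 0.59, SE 0.180, edgeR adjusted p = 0.0700). The 13 genes of cytochrome c, cytochrome c1 and ubiquinone had 0 calls (4 lower at an unadjusted p under 0.05, DESeq2 called 0) and a median of −0.25. Of 19 genes of the citric acid cycle and pyruvate dehydrogenase, 0 were called (6 lower and 2 higher at an unadjusted p under 0.05; DESeq2 called 0; median −0.16). The lowest p there was that of fumarase (Fh1), with 25.6 and 20.6 CPM in WT and 14.9 and 16.4 CPM in mutant libraries (−0.56, SE 0.154, edgeR adjusted p = 0.0525). Chchd3, a crista scaffold protein, was the 1 lower of 9 carrier and crista genes, with 29.0 and 27.7 CPM in WT and 20.8 and 20.8 CPM in mutant libraries (−0.44, SE 0.114, edgeR adjusted p = 0.0414).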

How the data were processed

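Total RNA of sorted cells from tumours digested for 45 minutes was sequenced in 4 libraries, 2 per genotype, with rRNA depletion and 75 cycles per the labels. The deposited table holds unnormalised read counts for each Ensembl gene ID. GRCm38 (mm10), STAR 2.5.2a, FastQC and DESeq2 are named in the submitters' processing notes. How reads were assigned to genes, with which annotation and whether by strand, was not stated. No gene in the table had fewer than 11 reads. Of the IDs, 17422 matched GENCODE M21, used for names and positions, and 54 did not. The column numbered 3 matches no label number, so it was used as a mutant library without one. Within pairs, the squared difference relative to sampling noise had a median of 2.01 in WT and 6.22 in mutant libraries. It used library totals without TMM, and the TMM factors of Trem2 mutant 1 and Trem2 mutant 3 were 0.811 and 0.949. The 6.22 therefore includes a scaling difference within the pair. Each library was counted separately, but these values do not show whether the libraries are independent samples.

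Counts were filtered with filterByExpr, scaled with TMM and tested with the quasi-likelihood test of edgeR 4.0.16 in R 4.3.3 (default glmQLFit, two-sided, genotype only), with Benjamini-Hochberg adjustment over 14239 genes. The biological coefficient of variation (common) was 0.106, and there were 2 residual and 5.71 prior degrees of freedom. In CPM, 3 counts, the limit a count of 0 allows, were 0.322 to 0.359, for counting error only. The test was checked on simulated data. Every member could be named; beyond members, up to 3 genes with the lowest p per list, copies of members and Trem2, while the motif letters, Gabpa, Gm42418, Xist, mt-Rnr1 and mt-Rnr2 were chosen after their values were seen. The members and lists were chosen with earlier results of these data known; the grouping of subunits by role was made after the values were seen. Alternatives used RLE, upper-quartile, library-total and nuclear protein-coding scaling, no filter or a stricter filter, DESeq2 1.42.0, limma-voom (limma 3.58.1), the other glmQLFit form, and each library left out; the lone library of a group was then assumed to vary like the other group.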

Additional observations from a re-analysis of the deposited data

How the results depend on the processing

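Library totals alone gave 650 higher and 4365 lower genes, 57 lower nuclear and 3 higher mitochondrial subunits, and medians of −0.58 (nuclear) and 0.41 (mitochondrial). The share of all calls that were higher was thus 12.96%, against 72.6% with TMM. The number of nuclear subunits called lower was 3 with RLE, 3 with no filter, 13 with upper-quartile scaling and 1 with DESeq2, which called 201 genes lower in all. Counting the 8 Ndufaf assembly factors as members, an alternative chosen after seeing the data, left it at 6. With each library left out in turn, 489 to 2090 genes were higher and 92 to 912 lower; of nuclear subunits 0 to 20 were lower and 0 to 1 higher, and of mitochondrial subunits 4 to 7 were higher. The nuclear median then ran from −0.29 to −0.17. The mitochondrial minus nuclear difference in complex III ran from 1.01 to 1.15. With sums of CPM in place of mean log values it was 0.88 in complex I and 0.79 in complex IV, and without mt-Nd6 it was 0.90 in complex I. No paired analysis was possible because the columns of the groups share only the number 1. Members with about 15 reads a library, such as Atp5l, Atp5s, Cox4i2 and Cox7a1, are limited by their few reads.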
